A study of Mus musculus with 71 samples.

Results

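The Ybx3 knockout oocytes of culture day 13 were represented by 2 libraries, labelled replicates 1 and 2, of the 71 samples in the series. They were chosen by their label alone and compared with the 2 wild-type libraries of day 13 on log2 of TPM plus 1, TPM being a transcript abundance scaled to gene length and to a fixed library total. All libraries used here came from mouse oocytes made in culture on a C57BL/6 X 129 background carrying the Blimp1-Venus and Stella-CFP reporters, which knockouts and wild types shared. Primordial germ cell-like cells were derived from embryonic stem cells, aggregated with gonadal somatic cells of E12.5 female embryos into reconstituted ovaries, and differentiated in vitro. All cultures received ICI182780, an oestrogen receptor antagonist, from day 7 to day 10, and Stella-CFP-positive oocytes were sorted at day 11 or day 13. Further groups used were the 2 wild-type libraries of day 11 and the 28 libraries of 14 other day 13 knockouts. The latter were knockouts of Ccnk, Dynll1, Ell3, Foxr1, Hes6, Kdm1b, Mef2b, Nobox, Noto, Sfr1, Sohlh1, Tbpl2, Tcf25 and Thap7. Day 11 knockouts of Figla, Lhx8, Stat3 and Sub1 were not compared, but were in the model behind all p-values. The labels give neither the method of knockout nor the number of clones, and they do not say whether the replicates were separate cultures, so p-values measure the spread between these libraries, which may be technical. The somatic cells of the aggregates came from embryos and not from the edited line. Ybx3 itself lies on chromosome 6 (131364855 to 131388476 of GRCm38, minus strand) and was not analysed here, so its loss was not checked in these libraries.

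Ybx3 encodes a Y-box protein, a member of the cold-shock domain family that binds mRNA and can also bind Y-box sequences in promoters. Its relative Ybx2 is a major mRNA-packaging protein of germ cells, which store and silence transcripts for later use. Ybx3 is also known as ZONAB for its association with the tight junction protein ZO-1, and it is known to stabilise mRNAs of the amino acid transporter subunits Slc7a5 and Slc3a2. In the ovary, oocytes complete the early steps of meiosis, in which homologous chromosomes are broken, paired and recombined, before they arrest, enter follicles and begin to grow. Growing oocytes then make the zona pellucida and maternal mRNAs, while granulosa cells surround and nourish them.

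Each of the 2 knockout libraries had between 9865 and 9882 genes at 1 TPM or more, against 8910 to 8939 in wild type of day 13 and 9340 to 9577 in wild type of day 11. The rows analysed summed to between 650840 and 707850 TPM in each library used, and the read depth behind these values is unknown. The sorted cells carried oocyte transcripts: the summed level of 7 oocyte markers (Zp3, Gdf9, Ddx4, Sohlh1, Padi6, Npm2 and Oosp1) was 30448 and 30979 TPM in the knockout, between the 8599 to 8758 TPM of wild type at day 11 and the 53784 to 55003 TPM at day 13. Granulosa and other gonadal somatic markers were present beside them. Their sum was 1855 and 1942 TPM in the knockout, 1600 to 1646 TPM in wild type of day 11 and 52.54 to 52.56 TPM in wild type of day 13. These are bulk samples, in which fewer cells of a type and less RNA per cell cannot be told apart.

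The Ybx3 knockout differed broadly from wild type at day 13, and the somatic, immune, immediate early and early meiosis genes among those examined were the groups with most members higher. A gene was called when its Benjamini-Hochberg adjusted p in limma was under 0.05 and its log2 difference was at least 1. Of 12306 genes tested, 2199 (17.9%) were called, 1927 (15.7%) higher and 272 (2.21%) lower in the knockout. The values of 62.3% of all genes did not overlap between the 2 pairs of libraries, so non-overlap alone marks no gene out here. The median difference of all genes was 0.20 on the log2 scale. When libraries were rescaled by the median of ratios, that median became 0 and the split moved to 1497 higher and 670 lower, from 87.6% higher to 69.1%.

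**Figure D1:**
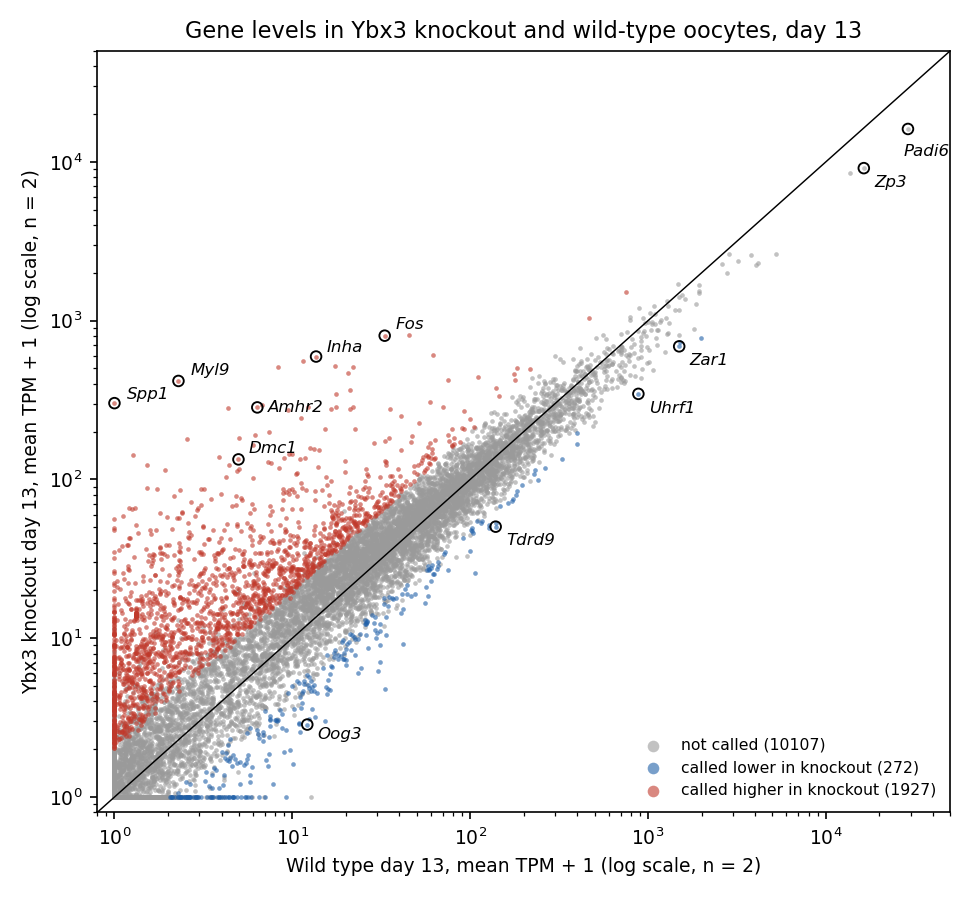
Mean TPM plus 1 of each gene tested in the Ybx3 knockout (vertical, log axis, 2 libraries) against wild type of day 13 (horizontal, log axis, 2 libraries), with called genes coloured by direction, some named genes circled and the line of equal level drawn. The 1927 genes called higher lie above the line and outnumber the 272 called lower below it.

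Early meiosis genes formed a group whose levels in the knockout lay above both wild types for most members. Of 23 tested, 14 were called higher and 0 lower than wild type of day 13, beside 15.7% and 2.21% of all genes. The median difference was 1.88 against 0.20 for all genes. The 14 were Dmc1, Spata22, Hfm1, Spo11, Msh5, Rec8, Hormad1, Prdm9, Meiob, Syce3, Hormad2, Sycp2, Mei1 and Msh4. The list as a whole summed to 3294 and 3384 TPM in the knockout, 1932 to 1987 TPM in wild type of day 13 and 2509 to 2524 TPM in wild type of day 11. By mean level, 16 of the 23 lay above both wild types, 5 between them and 2 below both, while 3840 of all 12306 genes lay above both.

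Dmc1, the meiosis-specific recombinase that pairs broken DNA with the homologous chromosome, was at 137.72 and 127.58 TPM in the 2 knockout libraries. In wild type it was at 1.80 and 6.16 TPM at day 13 and at 13.20 and 20.22 TPM at day 11. Both knockout libraries were above all 4 wild-type libraries. The log2 difference from wild type of day 13 was 4.90 (SE 0.31, adjusted p = 3.217e-12 in limma). Among the other 14 day 13 knockouts the mean level ran from 2.89 to 225.62 TPM with a median of 10.75, and 2 of them, the highest being Tbpl2, exceeded the Ybx3 knockout. Spata22, a partner of the recombination machinery, was at 120.70 and 102.21 TPM in the knockout and at 4.94 and 2.83 TPM in wild type of day 13. It was at 22.52 and 16.52 TPM in wild type of day 11, again below both knockout libraries. Its difference at day 13 was 4.55 (SE 0.35, adjusted p = 1.004e-10 in limma). Hfm1, a helicase of meiotic crossover formation, was at 75.50 and 70.30 TPM against 4.63 and 3.81 TPM, with 17.97 and 11.16 TPM in wild type of day 11. Spo11, the enzyme that makes the meiotic DNA breaks, was at 24.46 and 35.54 TPM in the knockout, 1.30 and 1.32 TPM in wild type of day 13, and 9.34 and 15.23 TPM in wild type of day 11. The knockout thus held the higher pair of values for each of these recombination genes in both comparisons.

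Sycp3, a structural protein of the synaptonemal complex and named here after its values were seen, was abundant in all groups and differed little. It was at 1235.21 and 1147.07 TPM in the knockout and at 871.99 and 907.58 TPM in wild type of day 13, a difference of 0.42 (SE 0.05, adjusted p = 1.985e-07 in limma) that was under the fold threshold. Members of the list that were not called included Mnd1, Psmc3ip, Mlh3 and Ythdc2, with differences between -0.40 and 0.02.

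Because Y-box proteins are named for a promoter sequence, the stretches upstream of 3 early meiosis genes are shown: Dmc1 and Spata22, which differed most, and Msh5, chosen after its values were seen as a second called gene holding the 5-base core. Each is the 100 bases before the RefSeq start on GRCm38.p6, read along the gene's strand, and capitals mark the core ATTGG, searched on both strands as ATTGG or CCAAT.
Dmc1: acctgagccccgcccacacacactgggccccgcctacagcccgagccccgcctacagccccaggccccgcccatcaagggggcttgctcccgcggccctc
Spata22: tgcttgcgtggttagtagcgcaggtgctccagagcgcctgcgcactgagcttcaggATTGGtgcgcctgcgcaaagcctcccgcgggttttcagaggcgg
Msh5: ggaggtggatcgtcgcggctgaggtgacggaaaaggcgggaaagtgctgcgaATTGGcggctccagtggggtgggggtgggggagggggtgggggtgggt
The stretches lie at chr15:79605110-79605209 (minus strand), chr11:73329641-73329740 (plus strand) and chr17:35046623-35046722 (minus strand). Spata22 and Msh5 hold the core in this stretch and the Dmc1 stretch does not. Of the 14 early meiosis genes called higher, 12 had a promoter of 250 bases before to 50 after the start in the RefSeq table, and 3 of these, 25%, held the core, against 37.4% of the 32851 promoters in the table. The longer Y-box CTGATTGG, or CCAATCAG, which contains the core, was in 0 of the 12 and in 4.1% of all promoters. Of the 23 early meiosis genes tested, 19 had a promoter, and 7 of these (36.8%) held the core. The longer box was in 2 of the 19 (10.5%), the uncalled Psmc3ip and Sycp3. Shares of gene sets use the first promoter of each gene, whereas those over all promoters count every promoter. A match or its lack describes only these letters in this window. Among all genes tested, 78% had a promoter in the table, under the 80% needed, so no share over all called genes is given.

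Proliferation genes gave 3 calls of 25 in the cell division list, all higher, with a median of 0.43. Of all genes tested, 15.7% were called higher, a share that this list did not exceed. Top2a, the topoisomerase of replicating and dividing cells, was at 114.25 and 99.78 TPM in the knockout, 10.14 and 8.89 TPM in wild type of day 13 and 38.56 and 48.50 TPM in wild type of day 11. Its difference at day 13 was 3.36 (SE 0.16, adjusted p = 8.693e-15 in limma). Ccne2, the cyclin E2 of S-phase entry, was at 79.29 and 91.51 TPM against 8.17 and 9.65 TPM at day 13 and 13.91 and 12.64 TPM at day 11. The knockout pair stood above both wild types for Top2a and Ccne2. Cdk4, a G1 kinase, was at 234.47 and 263.35 TPM, above the 42.69 and 36.48 TPM of wild type at day 13 and below the 270.39 and 293.22 TPM at day 11.

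**Figure D2:**
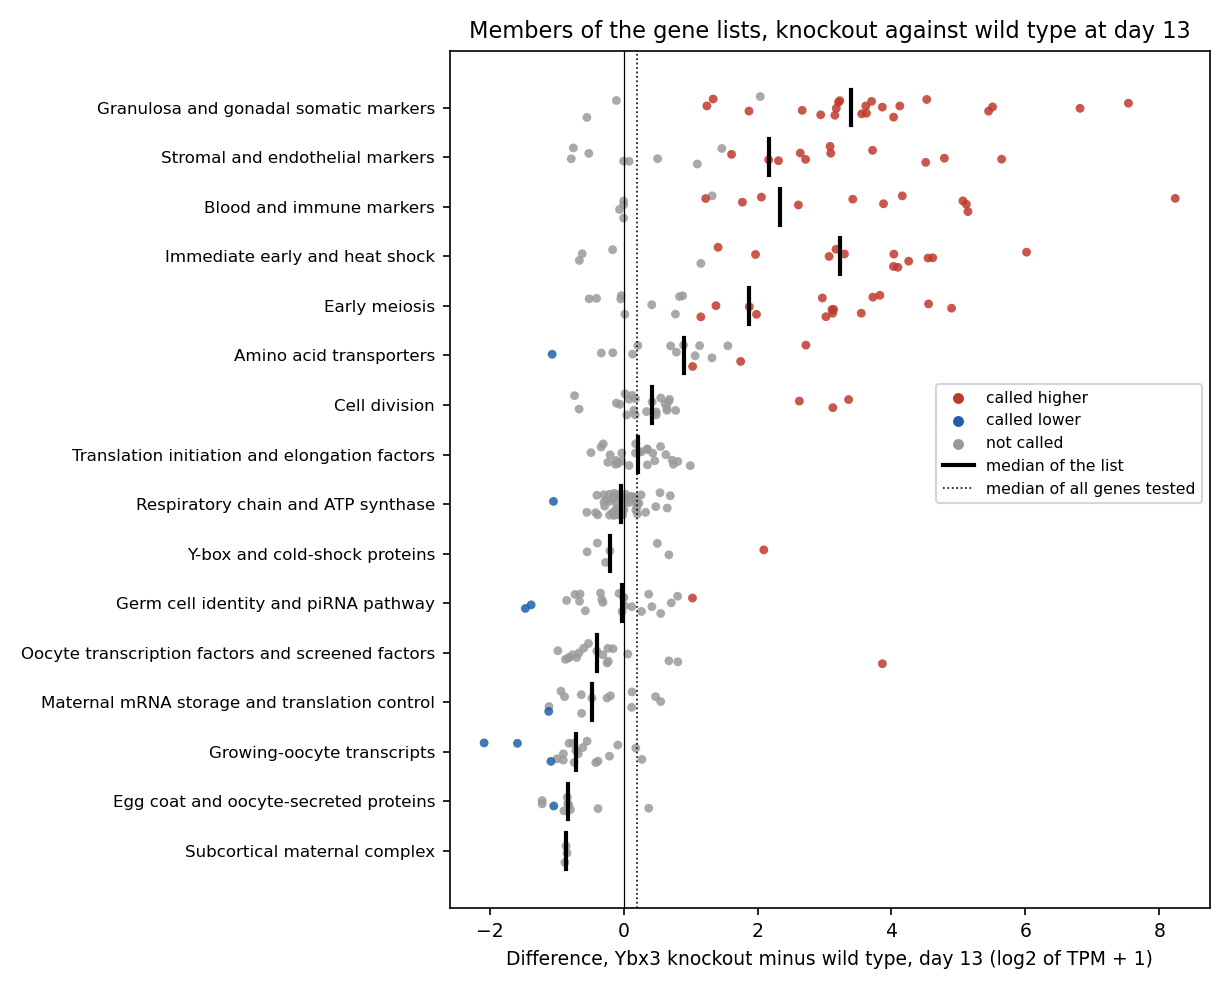
Log2 difference between the Ybx3 knockout and wild type of day 13 for each tested member of the gene lists (points, coloured by call), with each list's median (bar) and the median of all genes (dotted line at 0.20). The granulosa, stromal, blood, immediate early and early meiosis lists sit to the right of 0, and the egg coat and subcortical maternal complex lists to the left.

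Somatic cell markers were far higher in the knockout than in wild type of day 13. Of 24 granulosa and gonadal somatic markers tested, 21 were called higher and 0 lower, with a median difference of 3.39. Of 19 stromal and endothelial markers, 11 were called higher and 0 lower, with a median of 2.17. Beside both lists stand the shares over all genes, 15.7% called higher and 2.21% lower. The granulosa sum of the knockout was also above every other day 13 knockout library, which ranged from 68.19 to 1333 TPM. In the knockout 23 granulosa markers reached 1 TPM, against 12 to 14 in wild type of day 13, and Fshr was listed at 0 in both knockout libraries. The part that somatic RNA had in the other differences reported here was not tested.

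Myl9, a contractile myosin light chain, was at 442.13 and 389.35 TPM in the knockout and at 0.79 and 1.79 TPM in wild type of day 13, with 427.71 and 428.97 TPM in wild type of day 11. Its difference at day 13 was 7.54 (SE 0.53, adjusted p = 2.701e-11 in limma), and the knockout values straddled those of wild type at day 11. Amhr2, the receptor for anti-Mullerian hormone, was at 287.81 and 278.17 TPM against 6.61 and 4.10 TPM, with 318.82 and 313.96 TPM in wild type of day 11. Inha, the inhibin alpha subunit secreted by granulosa cells, was at 598.08 and 587.32 TPM against 13.48 and 11.72 TPM, with 295.00 and 291.51 TPM in wild type of day 11. Inha was thus above both wild types, by 5.45 (SE 0.13, adjusted p = 1.399e-20 in limma) at day 13 and by 1.01 (SE 0.13, adjusted p = 6.796e-06) from day 11, and the latter call was lost when knockout replicate 1 was left out. Hsd3b1, a steroid-synthesis enzyme, was at 156.36 and 125.23 TPM in the knockout and at 0.46 and 0.07 TPM in wild type of day 13. Among stromal genes, Vim, an intermediate filament of mesenchymal cells, was at 504.59 and 431.78 TPM against 17.62 and 21.57 TPM, and Sparc, a matrix protein, at 291.76 and 275.86 TPM against 17.75 and 23.96 TPM. Gata4, a transcription factor of somatic gonad cells, was the 1 called member of 19 in the list of oocyte transcription factors and screened factors, at 85.93 and 64.06 TPM against 4.04 and 4.29 TPM. The median of that list was -0.40, and after rescaling 1 member was called higher and 6 lower, with a median of -0.74.

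The genes with the greatest rise also included Serpina3a, a protease inhibitor, at 181.39 and 176.80 TPM against 1.53 and 1.59 TPM. Gstm2, a glutathione transferase with close relatives that could share its reads, was at 500.58 and 516.51 TPM against 6.28 and 8.25 TPM. For both the wild type of day 11 was also high, at 158.34 and 183.46 TPM and at 630.34 and 662.05 TPM in turn. Wnt6, a secreted signalling protein, was at 65.29 and 64.75 TPM in the knockout, 0.28 and 0.12 TPM in wild type of day 13 and 116.67 and 98.06 TPM in wild type of day 11. Slc26a7, an anion transporter, was listed at 0 in the 2 wild-type libraries of day 13 and was at 57.77 and 52.21 TPM in the knockout.

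Immune markers were higher in the knockout than in either wild type. Of 16 blood and immune markers tested, 11 were called higher and 0 lower against wild type of day 13, beside 15.7% and 2.21% of all genes. Their median was 2.33. Their sum was 579 and 603 TPM against 75.79 to 91.35 TPM at day 13 and 32.47 to 49.47 TPM at day 11. In wild type of day 13, 10 of the 16 were listed at 0 in both libraries. In the knockout Aif1, Hba-a1 and Hba-a2 were listed at 0, the latter pair being haemoglobin genes of red cells. The other day 13 knockout libraries ranged from 38.63 to 4060 TPM in this sum.

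Spp1, which encodes the secreted protein osteopontin, was listed at 0 in the 2 wild-type libraries of day 13 and at 294.83 and 307.36 TPM in the knockout (adjusted p = 1.595e-04 in limma). In wild type of day 11 it was at 4.06 and 1.58 TPM, so the knockout was high against both wild types. Cd52, a leukocyte surface peptide, was listed at 0 in all 4 wild-type libraries and was at 36.73 and 31.00 TPM in the knockout. Among the other day 13 knockouts its highest mean level was 2.26 TPM, in the Dynll1 knockout. Fcer1g, an Fc receptor subunit of myeloid cells, was at 33.78 and 50.33 TPM against 0.43 and 0 TPM at day 13. Lyz2, the lysozyme of macrophages, was at 40.08 and 29.66 TPM against 0 and 0.12 TPM. H2-Ab1, a class II antigen-presenting molecule, was at 47.74 and 68.18 TPM against 0.24 and 0 TPM at day 13 and 9.08 and 1.42 TPM at day 11. The knockout pair was the higher in each of these, while the mean of the Sohlh1 knockout, whose own 2 libraries stood apart at 294 and 4060 TPM in the marker sum, exceeded it for Spp1, Fcer1g and Lyz2 and the Tbpl2 knockout for H2-Ab1.

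Immediate early genes, whose transcription is switched on soon after a stimulus, were higher than in wild type of day 13. Of the 16 immediate early and heat shock genes, 12 were called higher and 0 lower, beside 15.7% and 2.21% of all genes. Their median was 3.24, and the sum was 3283 and 3307 TPM against 974 to 1036 TPM. In wild type of day 11 the sum was 2943 to 2982 TPM. Nr4a1, an immediate early nuclear receptor, was at 266.71 and 296.97 TPM in the knockout, 3.00 and 3.75 TPM in wild type of day 13 and 283.58 and 270.52 TPM in wild type of day 11. Fos, a subunit of the AP-1 factor, was at 782.38 and 822.36 TPM against 36.73 and 27.39 TPM at day 13 and 360.48 and 371.75 TPM at day 11. Fos was above both wild types, with the call against day 11 (1.13, SE 0.28, adjusted p = 0.006491 in limma) lost without knockout replicate 2, and the knockout values of Nr4a1 overlapped those of day 11. Jun, its AP-1 partner, was at 520.29 and 498.76 TPM, above the 21.35 and 20.34 TPM of day 13 and below the 651.56 and 649.90 TPM of day 11. Heat shock genes of the list divided, with Hspa1a and Hspa1b, near-identical copies that can share reads, called higher, and Hspb1, Hsp90aa1, Hspd1 and Hspe1 not called at differences between -0.66 and 1.15.

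**Figure D3:**
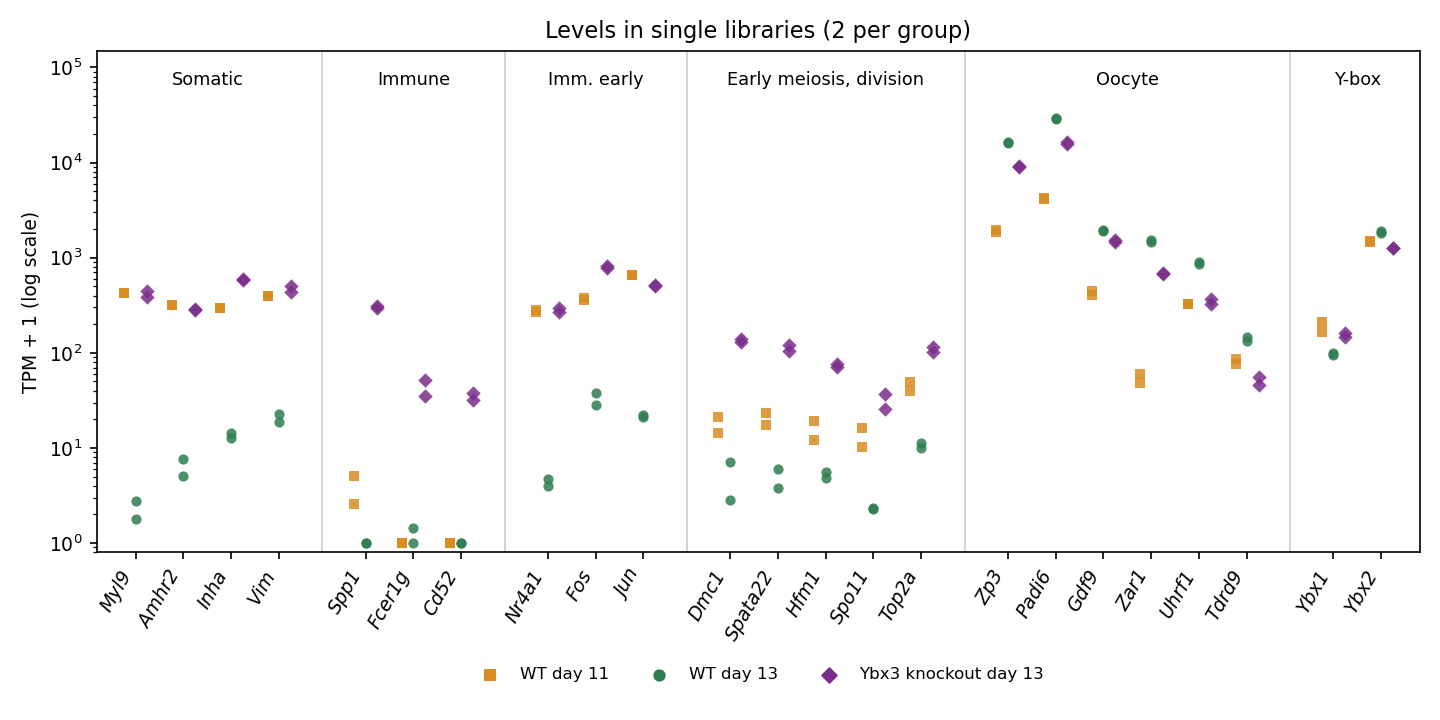
TPM plus 1 on a log axis in each of the 2 libraries of wild type at day 11 (squares), wild type at day 13 (circles) and the Ybx3 knockout at day 13 (diamonds) for 23 genes. Knockout values of Dmc1, Spata22 and Hfm1 lie above all wild-type values, whereas those of Zp3, Padi6, Gdf9 and Zar1 lie between the 2 wild-type days.

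Some growth-stage oocyte transcripts were called lower than in wild type of day 13 and 0 were called higher, and the list medians lay below 0. Over all genes tested, 2.21% were called lower and 15.7% higher. In the egg coat and oocyte-secreted list, 0 of 10 were called higher and 1 lower, with a median of -0.84. In the growing-oocyte list, 0 of 19 were called higher and 3 lower, with a median of -0.71, and in the subcortical maternal complex list 0 of 3 were called, with a median of -0.86. After rescaling by the median of ratios the lower calls became 5 of 10, 10 of 19 and 3 of 3, beside 670 of all 12211 genes then tested. By mean level, 9 of 10, 15 of 19 and 3 of 3 members lay between the 2 wild-type days, as did 51.3% of all genes tested.

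Zp3, the sperm-binding glycoprotein of the zona pellucida, was at 9096.53 and 9132.97 TPM in the knockout, 16422.55 and 16226.23 TPM in wild type of day 13 and 1942.66 and 1842.84 TPM in wild type of day 11. The difference from day 13 was -0.84 (SE 0.11, adjusted p = 1.357e-06 in limma), under the fold threshold, and became -1.18 after rescaling. Padi6, a component of the cytoplasmic lattices of the oocyte, was at 16330.91 and 15841.36 TPM against 29352.36 and 28462.53 TPM at day 13. Both pairs of knockout values were separate from those of either wild type. Gdf9, the growth factor by which oocytes signal to granulosa cells, was at 1515.38 and 1453.05 TPM, against 1976.30 and 1896.68 TPM at day 13 and 400.25 and 448.20 TPM at day 11. Its difference from day 13 was -0.38 (SE 0.35, adjusted p = 0.4512 in limma). Astl, the egg protease ovastacin, was the 1 egg coat gene called lower, at 765.34 and 697.21 TPM against 1527.39 and 1486.60 TPM, and the call was lost with a pseudocount of 0.1, without wild-type replicate 1 of day 13 or without knockout replicate 2. The 3 growing-oocyte genes called lower were Oog1, Oog3 and Oog4, members of a multigene family whose counts are uncertain, with Oog3 at 2.25 and 1.47 TPM against 9.41 and 12.86 TPM. Calls for Oog1 and Oog4, but not Oog3, were lost when single libraries were left out.

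Among maternal mRNA storage and translation control genes, 1 of 13 was called lower and 0 higher, beside 2.21% and 15.7% of all genes, with a median of -0.47. That gene was Zar1, which binds maternal mRNAs in the oocyte, at 677.45 and 697.29 TPM against 1537.40 and 1452.63 TPM at day 13 and 59.07 and 46.86 TPM at day 11. Its difference from day 13 was -1.12 (SE 0.21, adjusted p = 1.567e-04 in limma), and with a pseudocount of 0.1 it was no longer called (adjusted p = 0.0853). The count of lower calls became 3 of 13 after rescaling, and 2 of 13 without wild-type replicate 1 of day 13 or without knockout replicate 2. Translation initiation and elongation factors had 0 calls in either direction of 26, beside 17.9% of all genes. Under the fold threshold, 17 of the 26 had an adjusted p under 0.05 in limma, 13 higher and 4 lower. Among all 12306 genes, 1887 did so. The median of the list was 0.21, beside 0.20 for all genes, and became -0.13 after rescaling. Eef2, the elongation factor that moves the ribosome along mRNA, was at 1041.55 and 973.41 TPM against 791.50 and 784.24 TPM, a difference of 0.35 (SE 0.08, adjusted p = 0.001041 in limma) that became 0.01 after rescaling.

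The remaining cold-shock proteins differed by less than the fold threshold, apart from 1 low gene. Of 7 tested, 1 was called higher and 0 lower, with a median of -0.20. Among all genes 15.7% were called higher and 2.21% lower, so this count does not set the list apart. Ybx1, the broadly expressed Y-box protein, was at 162.24 and 146.60 TPM in the knockout, 92.91 and 99.53 TPM in wild type of day 13 and 209.54 and 164.92 TPM in wild type of day 11. Its difference from day 13 was 0.68 (SE 0.09, adjusted p = 3.398e-06 in limma), or 0.34 after rescaling. Ybx2, the germ cell Y-box protein, was at 1264.66 and 1277.73 TPM against 1905.92 and 1806.93 TPM at day 13 and 1487.96 and 1463.69 TPM at day 11. Ybx2 was thus lowest in the knockout pair, with a difference from day 13 of -0.55 (SE 0.09, adjusted p = 5.253e-05 in limma), or -0.89 after rescaling. The called gene was Csdc2, an RNA-binding cold-shock protein, at 13.39 and 3.55 TPM against 0.57 and 1.29 TPM, and this call was lost without knockout replicate 1 or wild-type replicate 1 of day 13. Lin28a, Lin28b and Carhsp1 were not called, at differences between -0.39 and 0.50.

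Genes of processes tied to Ybx3 in other cells gave mixed calls. The shares over all genes tested, beside which the list counts stand, were 15.7% called higher and 2.21% lower. Slc3a2, the heavy chain of amino acid exchangers, was at 101.15 and 98.96 TPM in the knockout, 53.64 and 61.70 TPM in wild type of day 13 and 76.91 and 89.38 TPM in wild type of day 11. The knockout pair was the highest of the 3, at 0.79 above day 13 (SE 0.14, adjusted p = 7.885e-05 in limma), under the fold threshold. Slc7a5 was not analysed here. Of 15 amino acid transporters, 3 were called higher and 1 lower, with a median of 0.89, and the higher count became 7 without the Sohlh1 knockout libraries in the fit. Slc38a2, a neutral amino acid carrier, was called higher at 67.62 and 61.00 TPM against 7.41 and 10.61 TPM, and Slc7a11, the cystine importer, was called lower at 13.10 and 10.12 TPM against 25.72 and 24.79 TPM. The Slc7a11 call was lost without knockout replicate 2.

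Of 20 tight junction genes and ZO-1 partners, 5 were called higher and 2 lower, with a median of 0.48, and the higher calls became 3 after rescaling. For this list and the next 2, the shares over all genes were 15.7% higher and 2.21% lower. Gja1, the gap junction protein connexin 43 abundant in granulosa cells, was at 189.55 and 207.71 TPM against 6.45 and 6.31 TPM, and F11r, a junctional adhesion molecule, at 83.22 and 86.08 TPM against 9.56 and 7.63 TPM. Cldn6, a claudin, was instead lower in the knockout at 11.44 and 11.64 TPM than in wild type of either day, which was at 33.22 and 22.59 TPM at day 13 and at 58.52 and 40.91 TPM at day 11. Its difference was -1.18 (SE 0.30, adjusted p = 0.003589 in limma) from day 13 and -1.99 (SE 0.30, adjusted p = 5.002e-05) from day 11, with the day 13 call lost without wild-type replicate 1 of day 13. In the amino acid and integrated stress response list 4 of 17 were called higher and 0 lower, with a median of 0.49, among them Ddit3, a stress-induced transcription factor, at 68.74 and 125.50 TPM against 17.73 and 13.32 TPM. Of 14 mRNA decay genes 4 were called higher and 0 lower, with a median of 0.09, among them Zfp36l1, which promotes decay of AU-rich mRNAs, at 58.98 and 61.95 TPM against 1.05 and 1.73 TPM, and Btg2, an antiproliferative adaptor of deadenylation, at 366.00 and 364.79 TPM against 22.16 and 17.98 TPM.

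Genes of the germline and its chromatin were called in both directions, where 15.7% of all genes were called higher and 2.21% lower. Tdrd9, a helicase of the piRNA pathway that silences transposons, was at 44.77 and 54.02 TPM in the knockout, 145.06 and 131.03 TPM in wild type of day 13 and 85.54 and 75.42 TPM in wild type of day 11. The knockout pair was below both wild types, and the difference from day 13 was -1.47 (SE 0.10, adjusted p = 2.792e-11 in limma). In its list of 23 germ cell identity and piRNA genes, 1 was called higher and 2 lower, with a median of -0.02, and the 1 higher call, Rnf17, was lost without knockout replicate 1, without wild-type replicate 2 of day 13 and after rescaling (0.69). Rescaling gave 0 higher and 4 lower calls in this list, with a median of -0.39. Uhrf1, a recruiter of DNA methylation maintenance, was at 366.74 and 322.48 TPM against 899.69 and 862.33 TPM at day 13 and 325.04 and 325.43 TPM at day 11. It was therefore at the day 11 level, and its difference from day 13 was -1.35 (SE 0.09, adjusted p = 1.453e-11 in limma). Of the 20 DNA methylation and chromatin genes, 3 were called higher and 3 lower, with a median of 0.36, and after rescaling 2 were higher and 5 lower, with a median of 0.03. Dnmt3l, the cofactor of de novo methylation in oocytes, was at 0.62 and 0.84 TPM against 5.46 and 3.62 TPM, and listed at 0 at day 11. Tet2, an enzyme that oxidises methylated cytosine, was called higher at 7.19 and 7.07 TPM against 2.06 and 2.06 TPM, as was its relative Tet1 at 1.49 and 2.39 TPM against 0.18 and 0.16 TPM.

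Most genes with the greatest fall were also below their day 13 level in wild type of day 11. C87977, a PRAME-like gene with close relatives, was at 5.02 and 2.55 TPM in the knockout, 32.88 and 31.69 TPM in wild type of day 13 and listed at 0 at day 11. Samd5 was at 4.96 and 5.54 TPM against 32.31 and 26.40 TPM, with 3.40 and 7.88 TPM at day 11. Dio3, the enzyme that inactivates thyroid hormone, was at 5.87 and 6.20 TPM against 28.77 and 31.05 TPM, with 6.11 and 5.35 TPM at day 11. Sox8, a SOX-family transcription factor, was below both wild types, at 3.98 and 0.21 TPM in the knockout and at 9.34 and 13.45 TPM and 7.03 and 11.42 TPM in wild type of days 13 and 11. Calls for Dio3 and Prkag2os1, an antisense gene, were lost with a pseudocount of 0.1, and those for Defb25, AU021063, Ppp1r14d, Gpx6 and Cbr3 were lost under at least 1 alternative.

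Energy metabolism genes gave few calls in the respiratory chain and cholesterol synthesis lists, and those called higher in glycolysis stood near the share over all genes. Beside all lists of this paragraph stand the shares over all genes, 15.7% called higher and 2.21% lower. Of 50 respiratory chain and ATP synthase genes, 0 were called higher and 1 lower, with a median of -0.04. The call, Atp5g1, was lost without knockout replicate 1 or without wild-type replicate 2 of day 13. Of 14 glycolysis genes 3 were called higher and 1 lower, with a median of 0.17, and of 17 cholesterol synthesis genes 1 was called higher and 0 lower, with a median of -0.08. Of 21 p53 and cell death genes 5 were called higher and 0 lower, with a median of 0.42, led by Bak1, an effector of mitochondrial apoptosis, at 13.32 and 26.18 TPM against 1.29 and 1.35 TPM. Of 18 genes of meiotic arrest and resumption 3 were called higher and 0 lower, with a median of 0.00, among them Npr2, the granulosa cell receptor through which arrest is maintained, at 30.21 and 34.47 TPM against 1.09 and 1.23 TPM.

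The comparison with the other day 13 knockouts asked which differences set the Ybx3 knockout apart from cultures of the same day with another gene removed. Its differences used no wild-type library, but the model behind their SE values and p-values held all 42 libraries. This comparison also shares the Ybx3 knockout libraries with the one above. Of 12306 genes, 1120 (9.10%) were called, 992 (8.06%) higher and 128 (1.04%) lower than the mean of the 14 other knockouts, and for 206 (1.67%) both Ybx3 libraries lay outside the range of all 28 others. Granulosa markers were higher in 19 of 24 and lower in 0, with a median of 1.98 against 0.07 for all genes. Early meiosis genes were higher in 11 of 23 and lower in 0, with a median of 1.17. Their mean sum was nevertheless larger in the Tbpl2 (4805 TPM), Dynll1 (3898 TPM) and Nobox (3619 TPM) knockouts than in the Ybx3 knockout (3339 TPM). The remaining groups lay below it. Blood and immune markers were higher in 10 of 16 and lower in 0, with a median of 1.72. Immediate early and heat shock genes were higher in 10 of 16 and lower in 0, with a median of 1.68. The mean sum of this list was highest in the Ybx3 knockout, at 3295 TPM. The Nobox (3117 TPM), Sohlh1 (3113 TPM), Dynll1 (2996 TPM) and Tbpl2 (2814 TPM) knockouts were close to it. Replicate 2 of the Sohlh1 knockout, at 3793 TPM, exceeded both Ybx3 libraries. The blood and immune count was 4 when either Ybx3 library was left out, and the early meiosis count did not move by over 1.5 times in any alternative run.

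Amhr2 separated the Ybx3 knockout from every other day 13 knockout, whose highest mean level, in the Tbpl2 knockout, was 184.85 TPM. Its log2 difference from their mean was 2.94 (SE 0.12, adjusted p = 7.123e-16 in limma). Inha did likewise, with a highest mean of 378.86 TPM elsewhere, as did Myl9, at 206.19 TPM, Serpina3a, at 73.88 TPM, and Pcp4l1, a small calmodulin-binding protein, at 53.36 TPM against 101.16 and 104.21 TPM in the Ybx3 knockout. Tnf, the inflammatory cytokine, was at 13.87 and 27.42 TPM in the Ybx3 knockout and at most 5.35 TPM, by mean, in another. Dmc1 differed from the mean of the others by 3.00 (SE 0.23, adjusted p = 2.158e-10 in limma). In the opposite direction, Pecam1, an adhesion molecule of endothelium and of early germ cells, was at 1.63 and 2.41 TPM where the other knockouts had means from 3.41 to 105.57 TPM, with a difference of -1.78 (SE 0.25, adjusted p = 6.595e-06 in limma). Acy3, an aminoacylase, was at 5.19 and 8.51 TPM where the others had means of at least 12.57 TPM, a call lost without knockout replicate 1. Ass1, an enzyme of arginine synthesis, was at 2.47 and 1.28 TPM against at least 5.20 TPM, a call lost without knockout replicate 2.

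Oocyte genes in this comparison depended on 4 of the other knockouts. The summed oocyte markers of the other knockout libraries ran from 1075 to 60868 TPM, and the Dynll1, Nobox, Sohlh1 and Tbpl2 knockouts were the groups below the Ybx3 knockout. With all 14 groups Zar1 was higher in the Ybx3 knockout by 1.27 (SE 0.15, adjusted p = 6.746e-07 in limma) and Gdf9 by 1.40 (SE 0.25, adjusted p = 1.774e-04). Without the Sohlh1 knockout alone Zar1 was at 0.65 and no longer called. Without those 4 groups, an alternative added after seeing the data, the differences turned to -0.96 and -0.68. The count of called genes was then 2023, of which 1764 were higher and 259 lower. Those groups were low in summed oocyte markers, Gdf9 among them, so leaving them out favours a fall in such genes.

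**Figure D4:**
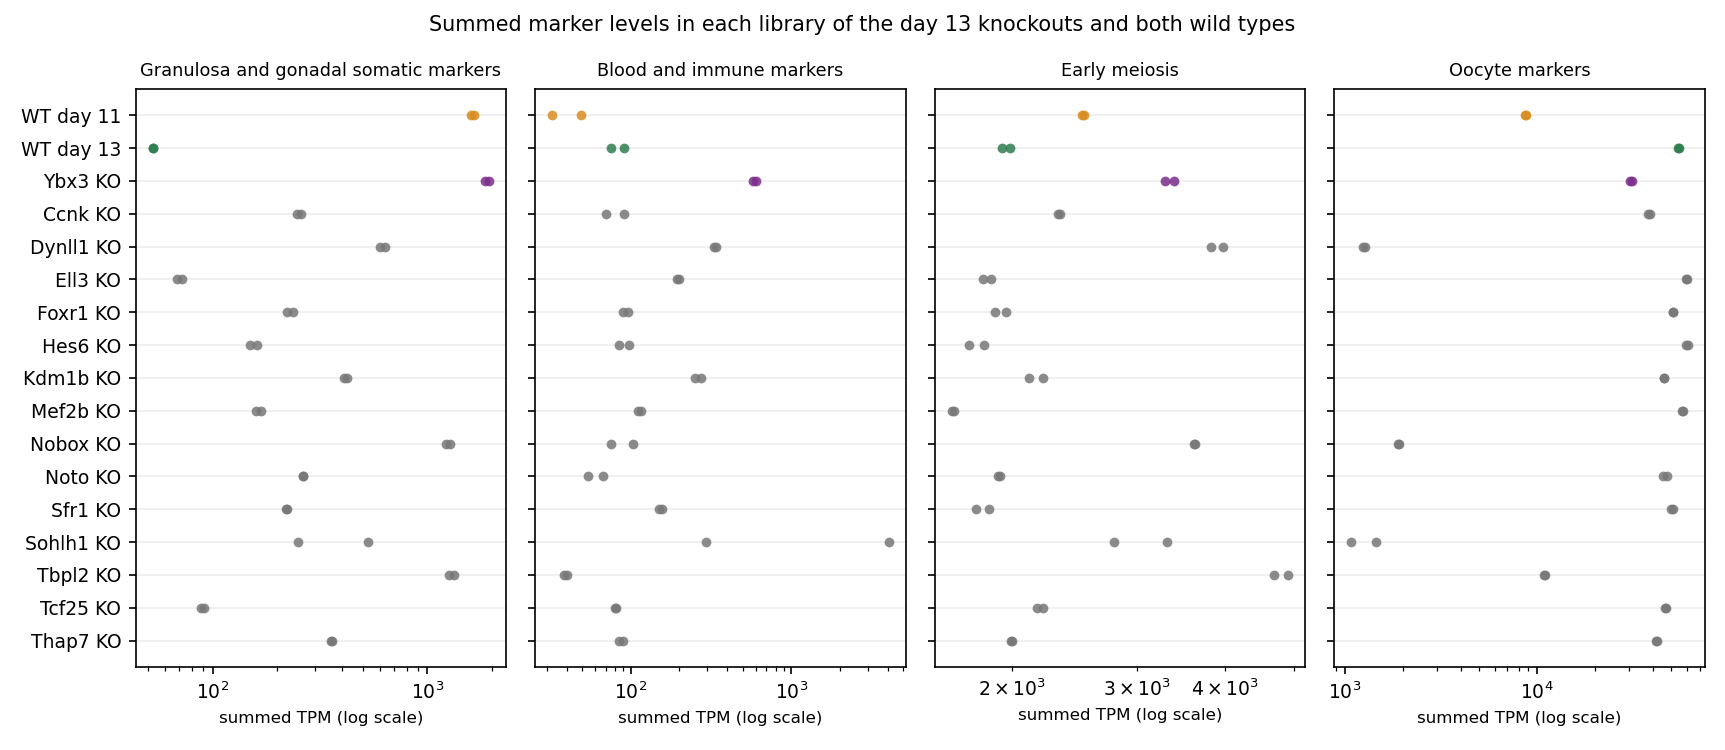
Summed TPM on a log axis for 4 marker lists in each library (points, 2 per row) of both wild types, the Ybx3 knockout and the 14 other day 13 knockouts. The Ybx3 knockout has the highest granulosa sum of the day 13 groups, while its oocyte sum lies above 4 of the other knockouts and below wild type of day 13.

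Set against wild type of day 11, the younger culture, the Ybx3 knockout differed in fewer genes. This comparison crosses days and shares the knockout libraries with those above. Of 12306 genes, 777 (6.31%) were called, 552 (4.49%) higher and 225 (1.83%) lower, and the values of 46.1% of all genes did not overlap. Fitted on these 4 libraries alone, the count was 264, of which 192 were higher and 72 lower. Across the 12306 genes, Pearson's r of mean log2 levels with the Ybx3 knockout was 0.963 for wild type of day 11. It was 0.923 for wild type of day 13. Among the other day 13 knockouts r ran from 0.8789 (Sohlh1) to 0.965 (Tbpl2). Of these only Nobox (0.8999), Dynll1 (0.8841) and Sohlh1 lay below wild type of day 13. Most other day 13 knockouts, such as Thap7 (0.96), were thus also closer to the Ybx3 knockout than that wild type. These values of r are a description over genes that are not independent.

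Early meiosis genes were higher than at day 11 in 9 of 23 and lower in 0, with a median of 0.97, while granulosa markers were higher in 3 of 24, or 1 without knockout replicate 1, and lower in 0, with a median of -0.03. Dmc1 was above day 11 by 2.94 (SE 0.31, adjusted p = 2.618e-07 in limma), Spata22 by 2.46 (SE 0.35, adjusted p = 1.574e-05) and Hfm1 by 2.28 (SE 0.17, adjusted p = 1.213e-09). Spo11, at 1.24 (SE 0.70, adjusted p = 0.2625), was not called. Blood and immune markers were higher in 11 of 16 and lower in 0, a count of 6 without knockout replicate 2 or without replicate 2 of day 11. Rgs1, a regulator of G-protein signalling in leukocytes, was listed at 0 in all 4 wild-type libraries and was at 39.90 and 56.33 TPM in the knockout. Ccl9, a chemokine, was at 56.06 and 45.48 TPM against 0.49 and 0 TPM at day 11.

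Egg coat and oocyte-secreted genes were higher than at day 11 in 6 of 10 and lower in 0, with a median of 1.80. Growing-oocyte genes were higher in 8 of 19 and lower in 0, with a median of 0.78, and the higher count was 5 without knockout replicate 1 or with a pseudocount of 0.1. The other 11 were not called, and 4 of the 19 had differences below 0, to a minimum of -0.87, of which 3 had an adjusted p under 0.05 in limma but were under the fold threshold. Zp3 was above day 11 by 2.27 (SE 0.11, adjusted p = 1.706e-13 in limma) and Zar1 by 3.68 (SE 0.21, adjusted p = 4.779e-12). Sp110, a nuclear body protein, was at 73.01 and 71.86 TPM against 3.12 and 0 TPM at day 11 and 132.15 and 119.47 TPM at day 13. Genes below day 11 included the interferon-induced Ifit1, at 1.79 and 1.52 TPM against 36.96 and 24.34 TPM, and Isg15, at 5.70 and 4.04 TPM against 49.96 and 43.69 TPM, the Isg15 call being lost with a pseudocount of 0.1 (adjusted p = 0.0774). Wild type of day 13 was also low for both, at 0.87 and 0.78 TPM for Ifit1 and 4.16 and 0 TPM for Isg15. Nppc, the ligand of Npr2, was at 0 and 2.47 TPM in the knockout against 12.08 and 25.95 TPM at day 11, and Cga, the common glycoprotein hormone subunit, at 0 and 0.23 TPM against 20.34 and 8.89 TPM.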

How the data were processed

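The authors deposited one table of gene-level TPM values for oocytes and induced oocyte-like cells. Directional polyA libraries were made, per the labels' protocols, and STAR 2.6.0, featureCounts 1.6.0 and mm10 are named in the submitters' processing notes, with no role given. TPM keeps no depth, so no interval for counting error is given, and TPM of 1 gene depends on all others in its library.

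Of 15163 rows, 1 incomplete row and 22 rows with names turned into dates were dropped, leaving 15140 genes. They lie almost only on chromosomes 1 to 5 and 10 to 19. The 42 in vitro oocyte columns were used and 106 columns were not. Genes at 1 TPM or more in at least 2 libraries were kept (12306). One limma 3.58.1 model (R 4.3.3; trended, robust variance; 21 groups, 21 residual degrees of freedom) was fitted to log2(TPM + 1), with Benjamini-Hochberg adjustment over all genes. All SE values and adjusted p-values of genes come from it, and log2 differences understate changes of low genes. Data with 12100 genes were also simulated for the day 13 comparison, with changes placed only in genes at about 10 TPM or more in wild type of day 13. Of such genes, 86% of those changed by 1.5 and 99% of those changed by 3 (log2) were called. Detection of changes in lower genes was not tested.

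The genes named were the 12 called highest and 12 lowest (5 each in the other comparisons) with non-overlapping values and at least 10 TPM in the higher group, up to 4 called members of each of 24 lists, and set genes (Y-box proteins, Slc3a2, Zp3, Gdf9, Sohlh1, Dmc1, Pou5f1). The lists and members were chosen with earlier results of these data known. Alternatives were another pseudocount, no filter, a median-of-ratios rescaling, a replicate block, fits on the compared groups alone and libraries left out. Gene positions are from GENCODE for GRCm38 and promoters from RefSeq, whose starts lay within 50 bases of a GENCODE start for 88.5% of genes compared. Some genes that the rule selects are not reported here.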

Additional observations from a re-analysis of the deposited data

How the results depend on the processing

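With 2 libraries a group and no depth, spread within a group is judged from all 21 groups together, and a group left with 1 library is assumed to vary like the others. Rescaling by the median of ratios moved the lower calls against wild type of day 13 from 272 to 670. Leaving out each library in turn gave 1879 to 2047 calls there, 1672 to 1834 higher and 207 to 254 lower. Against the other knockouts it gave 834 to 907 calls, 757 to 790 higher and 77 to 117 lower, and a pseudocount of 0.1 gave 218 lower. Without the Dynll1, Nobox, Tbpl2 and Sohlh1 knockouts these were 2023, 1764 and 259, with Zar1 at -0.96 and Gdf9 at -0.68. Those 4 were chosen after seeing the data and were low in summed oocyte markers. Against wild type of day 11, leaving out libraries gave 594 to 925 calls, 429 to 611 higher and 165 to 314 lower, and the 4 compared libraries alone gave 264, 192 and 72. The causes were not tested. The labels do not say what libraries of the same replicate number share. Deviations of same-numbered libraries correlated at 0.01 with wild type of day 13 and -0.01 with day 11, which does not settle whether they shared a batch. The replicate block gave 1926 higher and 273 lower, 991 and 128, and 551 and 229 in the 3 comparisons.

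Among list counts against wild type of day 13, the lower call became 0 without knockout replicate 2 for amino acid transporters, glycolysis and egg coat genes, and the higher call 0 for cholesterol synthesis. Tight junction lower calls ran from 0, without wild-type replicate 1, to 2. Against the other knockouts, 4 of 19 stromal markers were higher and 2 lower, the former becoming 0 without knockout replicate 1, 2 without replicate 2 and 7 without the Sohlh1 knockout. Egg coat genes were higher in 2 of 10 and growing-oocyte genes in 3 of 19, and both counts became 0 without the Sohlh1 knockout.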
